A study of Mus musculus with 18 samples.

Results

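The genes described here are 40 genes of ribosome biogenesis and the nucleolus, taken by symbol from the 55487 gene identifiers of RNA sequencing count tables of mouse forelimb buds. They were chosen by function, because cells of Roberts syndrome, the human disorder caused by loss of ESCO2, are known for nucleolar defects. Earlier results of these data were known when the choice was made. All 40 were found and all 40 had enough counts to be tested. They fall into 8 genes of RNA polymerase I (Pol I) transcription, 9 genes of small nucleolar ribonucleoproteins (snoRNPs) and their assembly, 9 genes of small subunit assembly, 9 genes of large subunit assembly, and 5 abundant nucleolar proteins or nucleolar regulators.

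Ribosomes are built in the nucleolus, where Pol I transcribes the ribosomal DNA into a long precursor. The snoRNPs guide chemical modification of that precursor, and assembly factors fold and cut it as ribosomal proteins join to form the small and large subunits. Growing tissue such as the early limb bud makes many ribosomes, and MYC proteins are well known activators of these genes.

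The mutants were Esco2fl/fl;Prrx1-CreTg/0 embryos, in which the Prrx1-Cre transgene acts in limb mesenchyme, while the bud also holds ectoderm, vessels and blood. The controls were Esco2fl/fl embryos. Both genotypes thus carried floxed alleles of Esco2, which encodes an acetyltransferase needed for sister chromatid cohesion. Since no control had Cre, an effect of the transgene itself cannot be told apart from loss of Esco2. Forelimb buds came from the embryonic days E9.5 and E10.5 and from E11.5, with RNA from individual buds and 3 libraries in each of the 6 groups. The labels do not say whether libraries came from separate embryos or litters, and give neither strain nor sex, so p-values measure the spread between these libraries only. In whole buds, fewer cells of a type and less RNA per cell cannot be told apart.

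Total counts ran from 35034237 to 56230058 per library. Esco2 itself, counted over all its exons, lay at 25.0 to 28.1 CPM (counts scaled to the library size) in E9.5 controls and 15.3 to 19.8 CPM in E9.5 mutants (log2 change -0.60 ± 0.14 SE, adjusted p = 0.162). At E10.5 it lay at 28.1 to 33.6 CPM in controls and 18.9 to 22.3 CPM in mutants (-0.53 ± 0.14, adjusted p = 0.020), and at E11.5 the ranges overlapped, at 20.6 to 30.9 and 22.5 to 23.8 CPM (-0.26 ± 0.14, adjusted p = 0.238). Control E9.5 replicate 1 and mutant E10.5 replicate 3 differed from the rest. In the first of these, Gm42418, which overlaps ribosomal RNA sequence, took 1.11% of counts against 0.119% to 0.644% elsewhere, and the number of genes detected was 22294, against 24125 or above. The latter had globin genes at 1.95% against 0.228% to 0.983%.

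The ribosome biogenesis genes were higher in mutants at E10.5 and E11.5, and the test called none of them at E9.5. By edgeR's quasi-likelihood test over 20118 genes, with an adjusted p under 0.05, 14 of the 40 rose at E10.5 and 0 fell, where 7.30% of all genes tested rose and 6.63% fell. Without 1 library of the stage the count was 5 to 9, lowest without control E10.5 replicate 2, and it was 24 without control E9.5 replicate 1. At E11.5, 31 of the 40 rose and 0 fell, where 8.02% of all genes tested rose and 9.52% fell, and the count was 23 to 33 without 1 library of the stage. The median log2 change of the 40 was 0.38 at E10.5 (1.30-fold) and 0.59 at E11.5 (1.51-fold), against 0.02 and 0.01 over all genes. The change was above 0 in 36 of 40 members at E10.5 and in 40 of 40 at E11.5, against 10391 and 10305 of the 20118 genes. At E9.5, 0 of 40 were called, where 0.184% of all genes were called in either direction. DESeq2 also called 0, 3 had an unadjusted p under 0.05, and the median was -0.02 against -0.01 over all genes.

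Single libraries separated in the same way. At E10.5 all 3 mutant libraries lay above all 3 control libraries for 32 of the 40 members, against 23.0% of all genes, and at E11.5 for 34, against 19.8%. The opposite order was seen for 1 member at E10.5, Ddx10, against 23.1% of all genes, and for 0 at E11.5, against 20.7%. At E9.5, 1 member, Rrn3, had non-overlapping higher mutant libraries, against 5.26% of all genes, and 0 had lower ones, against 3.61%. All 14 members that rose at E10.5 were among the 31 that rose at E11.5, so the shared genes were 100% of the E10.5 rises and 45.2% of the E11.5 rises. Over all genes tested, the 781 shared rises were 53.2% and 48.4% of those lists. With 31 of the 40 members called at E11.5, a high shared part of the E10.5 rises is largely set by that count. The comparison with all genes is therefore not separate evidence of agreement between the stages.

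**Figure D1:**
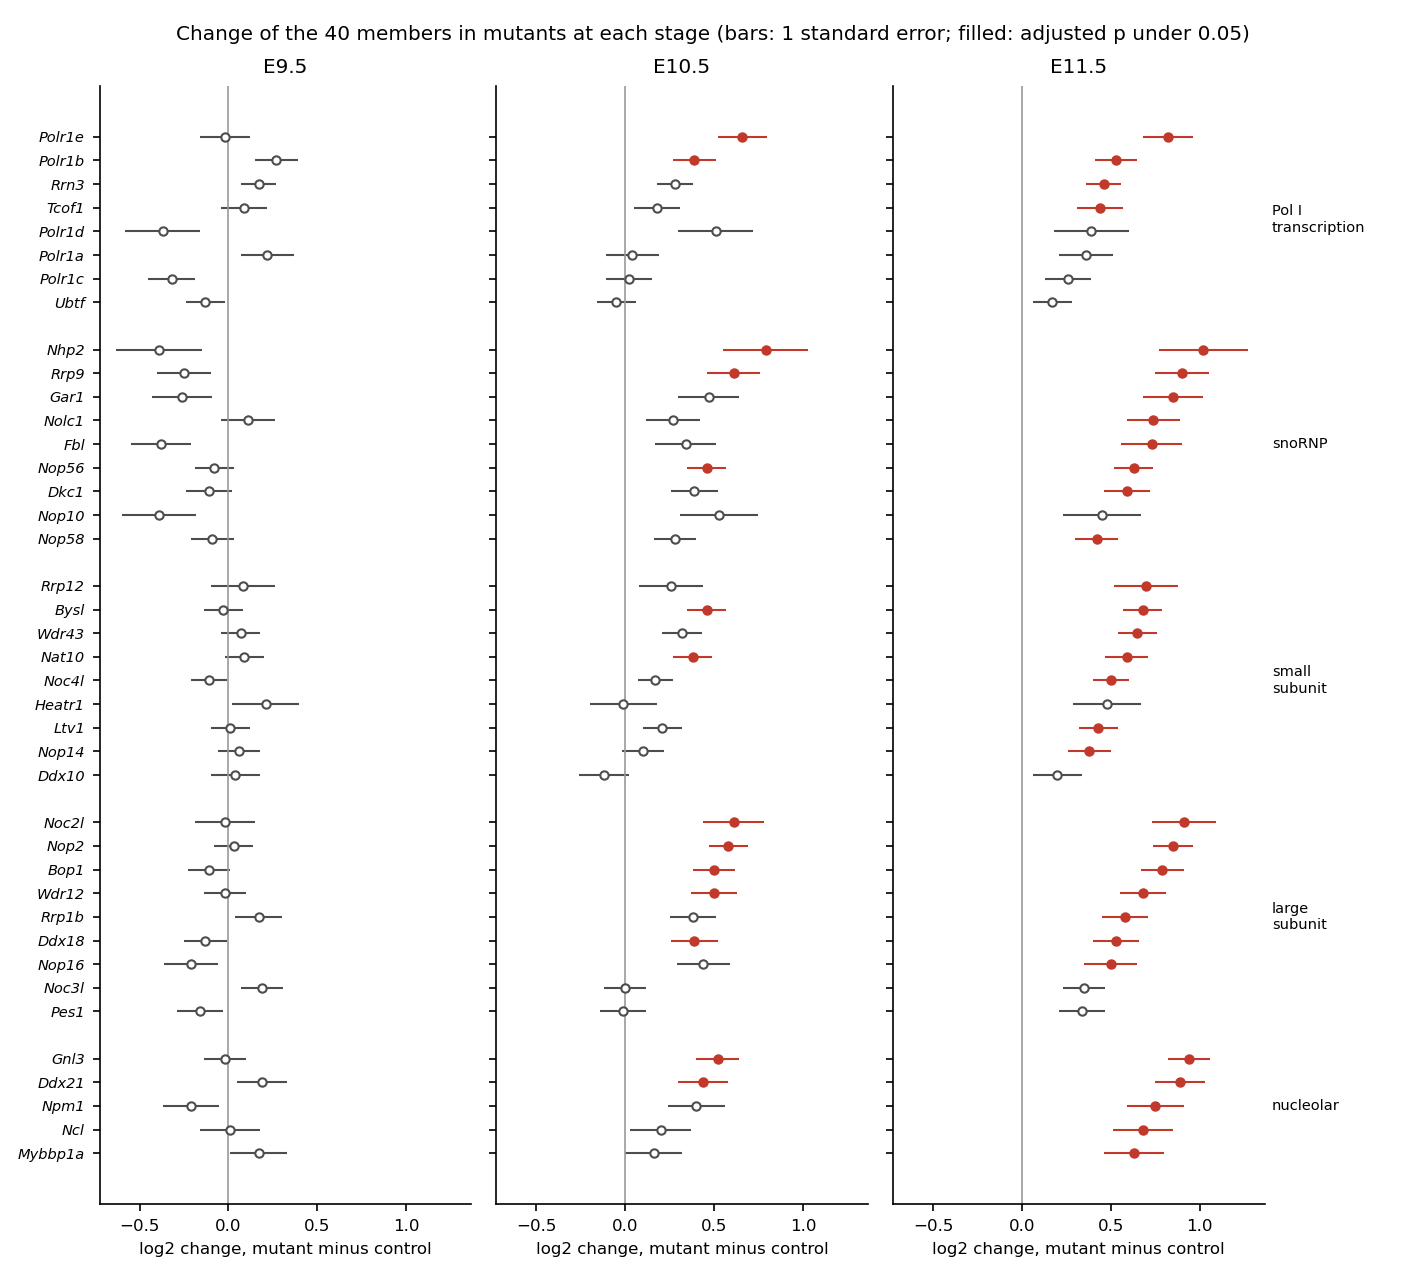
Log2 change between mutants and controls (x axis) of the 40 genes (rows, grouped by role) at the 3 stages. Points are the fitted changes of 3 libraries against 3, bars are 1 standard error, and filled red points have an adjusted p under 0.05. No point is filled at E9.5, 14 are at E10.5 and 31 at E11.5, all to the right of 0.

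Of the genes of Pol I transcription, 2 of 8 rose at E10.5 and 4 of 8 at E11.5, with medians of 0.23 and 0.42. The E10.5 count was 1 in each fit without 1 library of the stage, near the 7.30% of all genes. At E11.5 the count was 3 to 4 in such fits. Polr1a, the catalytic subunit, stood at 130, 123 and 122 CPM in E10.5 controls and 128, 125 and 134 CPM in E10.5 mutants. At E11.5 it stood at 110, 91.1 and 108 CPM in controls and 113, 132 and 152 CPM in mutants. The libraries overlapped at E10.5 (0.04 ± 0.15, adjusted p = 0.887) and were just separated at E11.5 (0.36 ± 0.15, adjusted p = 0.113). Polr1b, its partner in the catalytic core, stood at 75.6, 83.9 and 73.0 CPM in E10.5 controls and 98.8, 101 and 105 CPM in mutants. The E11.5 libraries stood at 58.4, 62.7 and 65.1 CPM against 88.1, 78.9 and 101 CPM. All mutant libraries were above all controls at both stages, and Polr1b rose at E10.5 (0.39 ± 0.12, adjusted p = 0.0433) and again a day later (0.53 ± 0.12, adjusted p = 0.00693). Its E10.5 call was lost without any one library of that stage.

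Polr1e, a subunit that helps Pol I to initiate, had the highest changes of the polymerase genes. It stood at 32.2, 28.2 and 33.8 CPM in E10.5 controls and 51.2, 46.0 and 51.7 CPM in mutants (0.66 ± 0.14, adjusted p = 0.00465). Its E11.5 values were 25.8, 23.7 and 21.5 CPM against 37.1, 37.7 and 50.9 CPM (0.82 ± 0.14, adjusted p = 0.000803). The E11.5 mutant libraries were thus above every E10.5 control. Rrn3, which recruits Pol I to the ribosomal promoter, had a change of 0.28 ± 0.10 at E10.5 that missed the threshold (adjusted p = 0.0764) and rose at E11.5 (0.46 ± 0.10, adjusted p = 0.00517).

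Of the other polymerase genes, Tcof1 rose, at E11.5, and Ubtf, Polr1c and Polr1d were not called. Ubtf, the factor that holds ribosomal DNA in an active state, stood at 332, 305 and 316 CPM in E10.5 controls and 311, 304 and 304 CPM in mutants. By E11.5 it was at 250, 263 and 274 CPM in controls and 254, 328 and 301 CPM in mutants. Its libraries overlapped at both stages, with changes of -0.05 ± 0.11 and 0.17 ± 0.11, the latter being the smallest change of any member at E11.5 (adjusted p = 0.322). Tcof1, encoding treacle, which couples ribosomal DNA transcription to processing, stood at 217, 206 and 206 CPM in E10.5 controls and 236, 233 and 246 CPM in mutants. At E11.5 it stood at 182, 151 and 168 CPM against 170, 233 and 276 CPM, so that 1 mutant library lay among the controls. Its change was 0.18 ± 0.13 at E10.5 (adjusted p = 0.401) and it rose at E11.5 (0.44 ± 0.13, adjusted p = 0.0314). That call held in 2 of 6 fits without 1 library, being lost without control E11.5 replicate 2 or 3 or mutant E11.5 replicate 2 or 3, and the change was 0.28 without the last. Polr1c and Polr1d, subunits shared with RNA polymerase III, were not called, with changes of 0.02 ± 0.13 and 0.51 ± 0.21 at E10.5 and 0.26 ± 0.13 and 0.39 ± 0.21 at E11.5. Libraries of Polr1c overlapped at E10.5 and were just separated a day later. Those of Polr1d did not overlap, at 58.5, 65.6 and 64.2 CPM in E10.5 controls and 83.6, 89.3 and 95.4 CPM in mutants. The E11.5 values of Polr1d were 52.4, 57.3 and 56.3 CPM against 76.6, 70.5 and 71.3 CPM. Polr1d passed the threshold at each stage under an alternative fit, but in 0 of 6 fits without 1 library of the stage.

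Of the snoRNP genes, 3 of 9 rose at E10.5, or 1 to 2 without 1 library of the stage. At E11.5, 8 of 9 rose, or 7 to 8 without 1 library. The medians were 0.46 and 0.73. Box C/D particles place methyl groups on ribosomal RNA. Fbl, their methyltransferase, stood at 174, 177 and 179 CPM in E10.5 controls and 227, 215 and 226 CPM in mutants. The E11.5 libraries stood at 120, 133 and 131 CPM against 190, 208 and 237 CPM. The libraries did not overlap at either stage, and the change missed the threshold at E10.5 (0.34 ± 0.17, adjusted p = 0.204) and passed it at E11.5 (0.73 ± 0.17, adjusted p = 0.00637). Nop56, a core protein of the same particle, stood at 281, 256 and 292 CPM in E10.5 controls and 381, 374 and 381 CPM in mutants (0.46 ± 0.11, adjusted p = 0.0114), and rose at E11.5 (0.63 ± 0.11, adjusted p = 0.000998). Its partner Nop58 had changes of 0.28 ± 0.12 (adjusted p = 0.141) and 0.42 ± 0.12 (adjusted p = 0.0251), the latter lost without control E11.5 replicate 2 or 3 or mutant E11.5 replicate 3, and at 0.26 without the last. The E10.5 call of Nop56 was lost without control E10.5 replicate 2.

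Rrp9, the protein specific to the U3 particle needed for small subunit processing, stood at 69.7, 69.8 and 71.8 CPM in E10.5 controls and 115, 108 and 99.0 CPM in mutants (0.61 ± 0.15, adjusted p = 0.0133). Its E11.5 values were 45.6, 49.2 and 49.8 CPM against 78.8, 96.1 and 95.4 CPM (0.90 ± 0.15, adjusted p = 0.000772). The control libraries at each stage lay close together and well below every mutant library. The E10.5 call of Rrp9 was lost without control E10.5 replicate 1.

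Box H/ACA particles convert uridines of ribosomal RNA to pseudouridine. Dkc1, their pseudouridine synthase, stood at 147, 148 and 150 CPM in E10.5 controls and 201, 183 and 199 CPM in mutants. By E11.5 it was at 120, 107 and 108 CPM against 148, 160 and 197 CPM. The libraries did not overlap at either stage, with changes of 0.39 ± 0.13 (adjusted p = 0.0561) and 0.59 ± 0.13 (adjusted p = 0.00494). Of its 3 partners, Nhp2 had the highest change of all members at both stages, 0.79 ± 0.24 (adjusted p = 0.0390, lost without any one library of the stage) and 1.02 ± 0.25 (adjusted p = 0.00806). Gar1 missed the threshold at E10.5 (0.47 ± 0.17, adjusted p = 0.0838) and rose at E11.5 (0.85 ± 0.17, adjusted p = 0.00277). Nop10 was not called at either stage, with 0.53 ± 0.22 and 0.45 ± 0.22. Nolc1, a chaperone of snoRNPs, had a change of 0.27 ± 0.15 at E10.5 and rose by 0.74 ± 0.15 on the log2 scale at E11.5 (adjusted p = 0.00268).

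Genes of small subunit assembly rose in 2 of 9 cases at E10.5 and in 7 of 9 at E11.5, with medians of 0.21 and 0.50. Without 1 library of the stage the E10.5 count was 1 in each fit, near the 7.30% of all genes, and the E11.5 count was 4 to 9. Bysl, which acts late in small subunit maturation, stood at 76.8, 79.7 and 82.0 CPM in E10.5 controls and 112, 107 and 108 CPM in mutants (0.46 ± 0.11, adjusted p = 0.00819). At E11.5 it stood at 59.1, 55.4 and 57.3 CPM against 83.3, 87.9 and 105 CPM (0.68 ± 0.11, adjusted p = 0.000358). Wdr43, part of the early processome, stood at 112, 96.7 and 101 CPM in E11.5 controls and 140, 149 and 196 CPM in mutants (0.65 ± 0.11, adjusted p = 0.000927). Neither gene had overlapping libraries at these stages, and the 2 calls of Bysl and the E11.5 call of Wdr43 held whichever library of the stage was left out.

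Nat10, which acetylates cytidines of ribosomal RNA, rose at E10.5 (0.38 ± 0.11, adjusted p = 0.0338, lost without any one library of the stage) and at E11.5 (0.59 ± 0.12, adjusted p = 0.00208). The processome and export proteins Nop14, Noc4l, Rrp12 and Ltv1 missed the threshold at E10.5 and rose at E11.5, with changes of 0.38 ± 0.12, 0.50 ± 0.10, 0.70 ± 0.18 and 0.43 ± 0.11. Nop14, Rrp12 and Ltv1 lost their calls without mutant E11.5 replicate 3, where the changes of Nop14 and Rrp12 were 0.19 and 0.46. Rrp12 also lost its call without control E11.5 replicate 2 and Ltv1 without control E11.5 replicate 1, and that of Nop14 held in 1 of 6 fits, the one without mutant E11.5 replicate 1. Whether these 4 genes changed more at E11.5 than at E10.5 was tested, and none passed. Heatr1, a scaffold of the early processome, had changes of -0.01 ± 0.19 and 0.48 ± 0.19 and was not called (adjusted p = 0.983 and 0.0944). The helicase Ddx10 had the lowest change of the members at E10.5, at 49.1, 55.1 and 49.2 CPM in controls and 46.7, 46.0 and 48.5 CPM in mutants. Its mutant libraries lay just under the controls, with a change of -0.12 ± 0.14 (adjusted p = 0.616), and it was not called at E11.5 (0.20 ± 0.14, adjusted p = 0.344). Heatr1 and Ddx10 were each called at E11.5 in 1 of 6 fits without 1 library, the one without mutant E11.5 replicate 1.

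Genes of large subunit assembly rose in 5 of 9 cases at E10.5 and in 7 of 9 at E11.5, with medians of 0.44 and 0.58. Without 1 library of the stage these counts were 2 to 4 and 6 to 7. Nop2, a methyltransferase of the large subunit RNA, had the smallest adjusted p of all members at both stages. It stood at 119, 107 and 120 CPM in E10.5 controls and 182, 177 and 159 CPM in mutants (0.58 ± 0.11, adjusted p = 0.00149). The E11.5 libraries stood at 89.1, 78.7 and 81.7 CPM against 128, 152 and 168 CPM (0.85 ± 0.11, adjusted p = 5.29e-05). Every mutant library exceeded every control library of its stage, and both calls held whichever library of the stage was left out.

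Bop1, Pes1 and Wdr12 encode the PeBoW complex, which is needed to cut the spacer between the large subunit RNAs, and the test called 2 of the 3. Bop1 stood at 122, 120 and 133 CPM in E10.5 controls and 183, 179 and 169 CPM in mutants (0.50 ± 0.12, adjusted p = 0.00988). Its E11.5 values were 96.8, 83.3 and 89.2 CPM against 150, 147 and 168 CPM (0.79 ± 0.12, adjusted p = 0.000317). Wdr12 stood at 48.8, 47.0 and 50.0 CPM in E10.5 controls and 73.3, 60.9 and 72.7 CPM in mutants (0.50 ± 0.13, adjusted p = 0.0124), and it rose at E11.5 (0.68 ± 0.13, adjusted p = 0.00133). Leaving out control replicate 2 or mutant replicate 3 of E10.5 ended the first of these calls. Pes1, the third, stood at 149, 157 and 156 CPM in E10.5 controls and 151, 146 and 162 CPM in mutants, which overlapped (-0.01 ± 0.13, adjusted p = 0.985), and its change at E11.5 missed the threshold (0.34 ± 0.13, adjusted p = 0.0777, and called at 0.33 without control E9.5 replicate 1). Pes1 was also called at E11.5 in 1 of 6 fits without 1 library of the stage. The difference between the 3 genes of the complex was not tested.

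Of the remaining assembly factors, Noc2l and Noc3l encode partners in one complex. Noc2l rose at E10.5 (0.61 ± 0.17, adjusted p = 0.0282, held in 1 of 6 fits without 1 library) and E11.5 (0.91 ± 0.18, adjusted p = 0.00182), while Noc3l had changes of 0.00 ± 0.12 and 0.35 ± 0.12 and was not called (adjusted p = 0.988 and 0.0540). The helicase Ddx18 rose at both stages (0.39 ± 0.13, adjusted p = 0.0451, lost without any one library of the stage, and 0.53 ± 0.13, adjusted p = 0.00689). Rrp1b and Nop16 missed the threshold at E10.5 (0.38 ± 0.13 and 0.44 ± 0.15) and rose at E11.5 (0.58 ± 0.13 and 0.50 ± 0.15), the call of Nop16 holding in 1 of 6 fits without 1 library.

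The abundant nucleolar proteins rose in 2 of 5 cases at E10.5 and in 5 of 5 at E11.5, with medians of 0.40 and 0.75. Without 1 library of the stage these counts were 0 to 1 and 3 to 5. Npm1, encoding nucleophosmin, the scaffold of the granular outer nucleolus, stood at 1730, 1630 and 1710 CPM in E10.5 controls and 2390, 2050 and 2230 CPM in mutants. By E11.5 it was at 1310, 1210 and 1250 CPM against 1980, 1920 and 2440 CPM. The libraries did not overlap at either stage, and the change missed the threshold at E10.5 (0.40 ± 0.16, adjusted p = 0.108) and passed it at E11.5 (0.75 ± 0.16, adjusted p = 0.00346). Ncl, encoding nucleolin, which binds the precursor RNA, stood at 1310, 1260 and 1180 CPM in E10.5 controls and 1460, 1270 and 1590 CPM in mutants. At E11.5 it stood at 979, 879 and 1000 CPM against 1070, 1480 and 2020 CPM. The E10.5 libraries overlapped (0.20 ± 0.17, adjusted p = 0.460), and the E11.5 mutant libraries spread over a wide range above the controls (0.68 ± 0.17, adjusted p = 0.00986). Without mutant E11.5 replicate 3 the change of Ncl was 0.43 and its call was lost.

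Gnl3, encoding nucleostemin, a nucleolar GTPase of proliferating cells, stood at 114, 102 and 122 CPM in E10.5 controls and 173, 156 and 152 CPM in mutants (0.52 ± 0.12, adjusted p = 0.00944). The E11.5 libraries stood at 80.6, 74.8 and 66.6 CPM against 127, 131 and 167 CPM (0.94 ± 0.12, adjusted p = 7.88e-05). The groups did not overlap, and E11.5 mutants lay above E10.5 controls. The E10.5 call of Gnl3 was lost without control E10.5 replicate 2. Ddx21, a helicase that acts on Pol I transcripts, stood at 193, 163 and 184 CPM in E11.5 controls and 270, 316 and 417 CPM in mutants (0.89 ± 0.14, adjusted p = 0.000431), after 0.44 ± 0.14 at E10.5 (adjusted p = 0.0481, lost without any one library of the stage). Mybbp1a, a nucleolar regulator of transcription, had a change of 0.16 ± 0.16 at E10.5 and rose at E11.5 (0.63 ± 0.17, adjusted p = 0.0131), a call lost without control E11.5 replicate 2 or mutant E11.5 replicate 3. The exons of Nop56, Ncl, Gnl3 and Nop58 share 8.0%, 2.1%, 3.9% and 0.8% of their length with small RNA genes of the same strand, so reads there cannot be assigned with certainty. The other 36 members share none.

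**Figure D2:**
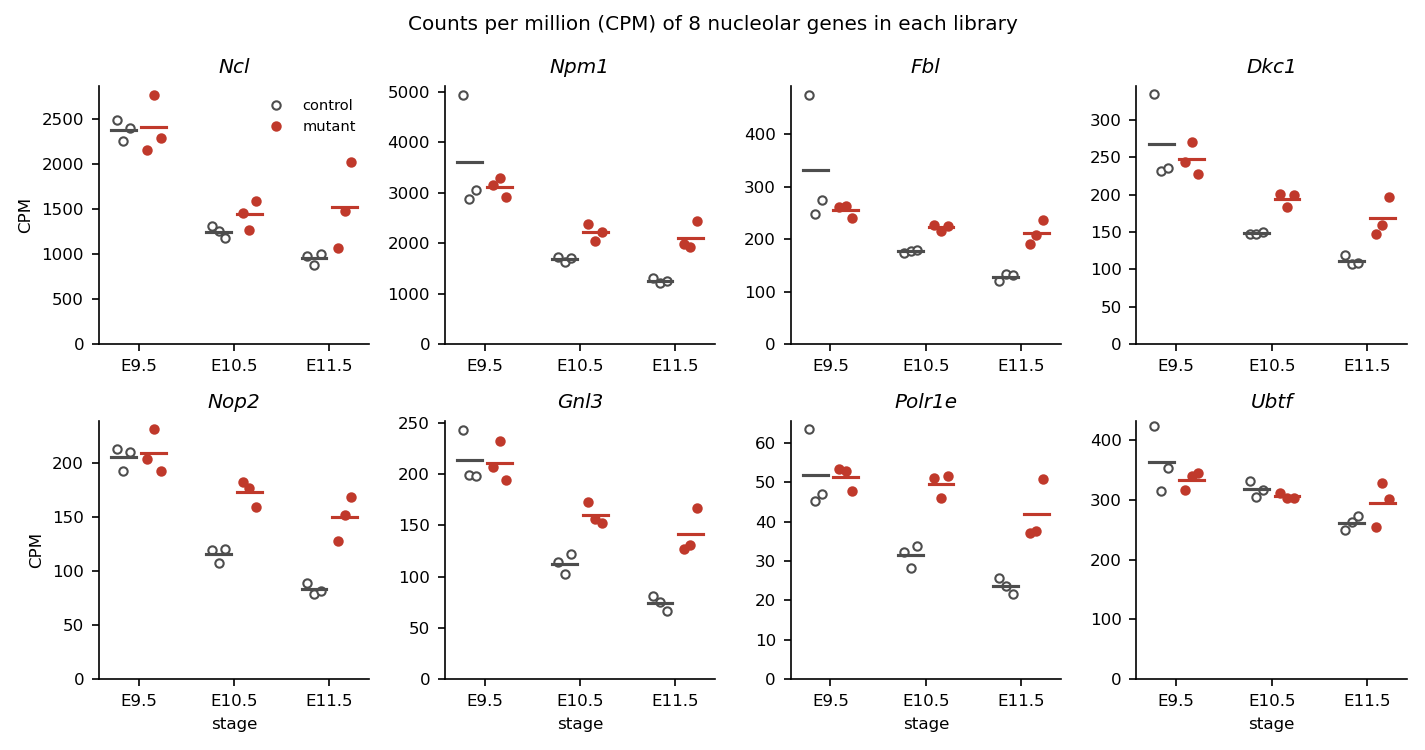
CPM (y axis, starting at 0 in each panel) of 8 of the genes in each library at the 3 stages, controls as open circles and mutants as filled circles, with lines at group means. For 6 of the 8, namely Nop2, Gnl3, Polr1e, Dkc1, Fbl and Npm1, the mutant libraries at E10.5 and E11.5 lie above all controls of the stage, while Ncl overlaps at E10.5 and Ubtf at both stages.

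At E9.5 the members with the smallest adjusted p did not share a direction. Polr1b stood at 89.5, 129 and 106 CPM in controls and 121, 146 and 123 CPM in mutants by library (0.27 ± 0.12, adjusted p = 0.497). Fbl stood at 474, 248 and 274 CPM in controls against 261, 264 and 240 CPM in mutants (-0.38 ± 0.17, adjusted p = 0.497), and Polr1c at 217, 143 and 144 CPM against 145, 139 and 121 CPM (-0.32 ± 0.13, adjusted p = 0.497). In both of the latter genes, control replicate 1 alone was high. The same library was high for Polr1d (186, 85.7 and 86.5 CPM in controls, 99.4, 96.2 and 81.4 CPM in mutants), Nop10 (163, 71.2 and 78.4 CPM against 89.1, 78.2 and 70.9 CPM), Rrp9 (179, 97.0 and 122 CPM against 109, 116 and 110 CPM) and Nhp2 (408, 151 and 170 CPM against 195, 190 and 172 CPM). It was not high for Rrn3 (131, 140 and 141 CPM against 146, 171 and 147 CPM), whose mutant libraries lay above the controls. Their changes were -0.37 ± 0.21, -0.39 ± 0.21, -0.25 ± 0.15, -0.39 ± 0.24 and 0.17 ± 0.10, in that order, and none passed the test.

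For the genes followed in full, Ncl stood at 2490, 2250 and 2400 CPM in E9.5 controls and 2160, 2770 and 2290 CPM in mutants. Npm1 stood at 4930, 2870 and 3050 CPM against 3150, 3290 and 2920 CPM. Dkc1 stood at 334, 232 and 236 CPM against 244, 270 and 228 CPM. Again only control replicate 1 of Npm1 and Dkc1 stood out, while the other controls lay within or near the mutant range. Polr1a stood at 116, 180 and 176 CPM against 167, 216 and 167 CPM, Ubtf at 424, 315 and 354 CPM against 317, 340 and 345 CPM, and Tcof1 at 262, 296 and 311 CPM against 297, 338 and 288 CPM. All of these overlapped. Without control E9.5 replicate 1 the member median at E9.5 was 0.07, 36 of 40 changes were above 0, and 0 were called. The share of all genes above 0 in that fit is not given here.

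The change at E9.5 also moved with gene length. Over 20118 genes Spearman's rho between the E9.5 change and length was 0.36, and over the 40 members rho was 0.62. At E10.5 and E11.5 rho was -0.20 and -0.23 over all genes and -0.28 and -0.05 over the members. These are descriptions across genes, which share libraries and are not independent replicates. With the length trend of each library removed, 0, 15 and 33 members were called at the 3 stages, all higher in mutants.

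In controls the same genes fell as the limb bud developed. From E9.5 to E10.5, 35 of 40 fell and 0 rose, where 12.5% of all genes tested fell and 15.0% rose, with a median log2 change of -0.71 (to 0.611 of the E9.5 level) against 0.02 over all genes. The 6 with the smallest adjusted p were Nop2 (-0.83 ± 0.11, adjusted p = 3.39e-05), Gnl3 (-0.93 ± 0.12, 4.62e-05), Nop56 (-0.78 ± 0.11, 0.000100), Bysl (-0.73 ± 0.11, 0.000110), Npm1 (-1.10 ± 0.16, 0.000110) and Wdr12 (-0.83 ± 0.13, 0.000156). Polr1a, Ubtf, Rrn3, Heatr1 and Noc3l were not called, and 36 of 40 had non-overlapping lower E10.5 libraries, against 16.9% of all genes. By role, 5 of 8 Pol I genes, 9 of 9 snoRNP genes, 8 of 9 small subunit genes, 8 of 9 large subunit genes and 5 of 5 nucleolar genes fell. Without control E9.5 replicate 1, 37 were called and the median was -0.60, while the changes of Nhp2, Polr1d, Nop10, Fbl, Gar1, Nop16 and Polr1c shrank by over 1.5 times, for example from -1.25 to -0.66 for Nhp2. The control libraries used here also enter the comparisons with mutants, so the falls in controls and the rises in mutants are not independent.

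From E10.5 to E11.5, 11 of 40 members fell further in controls and 0 rose, where 2.89% of all genes tested fell and 6.60% rose, with a median of -0.40 against -0.00 over all genes. All 40 members had every E11.5 control library below every E10.5 control library, against 18.4% of all genes. The lowest adjusted p values were those of Gnl3 (-0.60 ± 0.12, adjusted p = 0.00558), Nop2 (-0.47 ± 0.11, 0.00967), Bysl (-0.47 ± 0.11, 0.00994), Nolc1 (-0.59 ± 0.15, 0.0191), Bop1 (-0.48 ± 0.12, 0.0194) and Nop56 (-0.44 ± 0.11, 0.0205). The calls of Gnl3 and Bysl held whichever library of these stages was left out, and those of the other 9 did not, with 29 members at an unadjusted p under 0.05. Leaving out control E9.5 replicate 1, which enters this comparison through the estimate of spread, gave 26.

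In mutants, 14 members fell over the first step and 0 were called over the next. The difference between the genotypes over each step is the interaction, which passed for 1 of 40 members over the first step and for 0 over the next. From E9.5 to E10.5, 14 of 40 fell and 0 rose, where 4.40% of all genes tested fell and 9.63% rose, and 31 had non-overlapping lower libraries, against 18.2% of all genes, with a median of -0.32 against 0.04 over all genes. Ncl fell by 0.74 on the log2 scale (adjusted p = 0.00662) and was the only one of the 14 whose call held whichever library of these stages was left out. The count was 1 without mutant E9.5 replicate 2 and 27 without control E9.5 replicate 1. From E10.5 to E11.5, 0 of 40 were called, where 2.89% of all genes were called in either direction, 2 had an unadjusted p under 0.05 and DESeq2 called 0. The median was -0.11 against -0.01 over all genes, and 8 had non-overlapping lower libraries, against 12.3% of all genes.

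Relative to the control E9.5 mean, the member median thus stood at -0.71 in E10.5 controls and -1.07 in E11.5 controls, and at -0.01, -0.32 and -0.50 in E9.5, E10.5 and E11.5 mutants. Of the 40 members, 37 had a higher mean in E11.5 mutants than in E10.5 controls, and 0 had a higher mean there than in E9.5 controls. Neither difference was tested, and the same counts were not made over all genes, so these have no background beside them. The 3 E11.5 mutant libraries spread from -0.67 through -0.49 to -0.25, while the 3 E11.5 controls lay between -1.11 and -1.01.

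**Figure D3:**
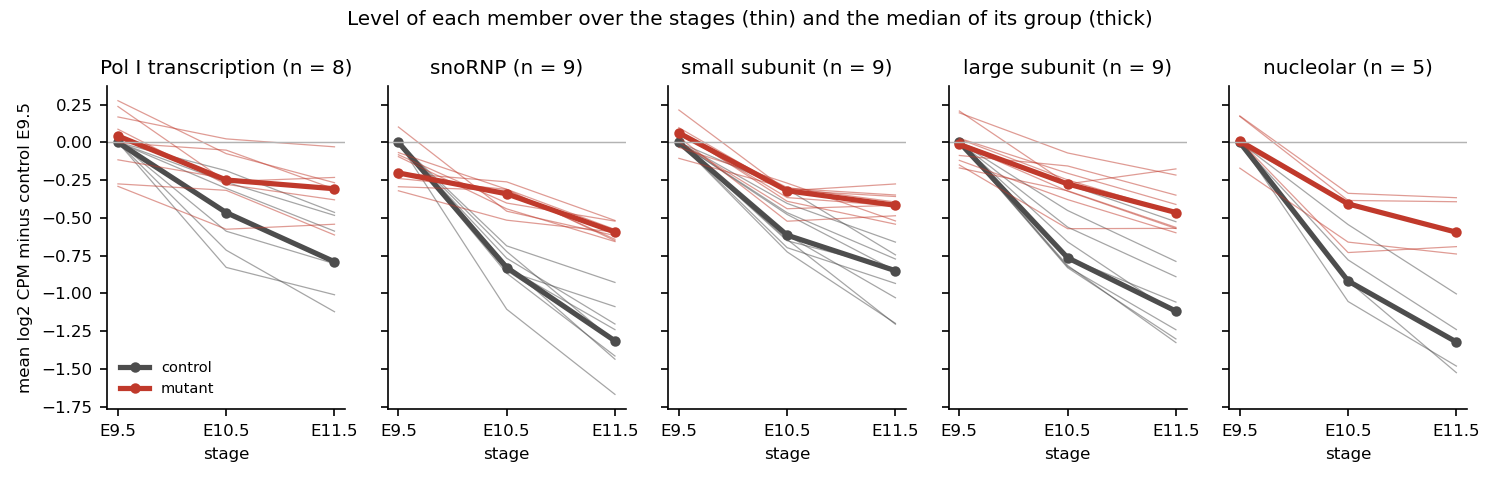
Mean log2 CPM of each gene minus its control E9.5 mean (y axis) at the 3 stages, in 5 panels by role, controls in grey and mutants in red; thin lines are genes and thick lines are medians. In every panel the grey median falls further than the red one by E11.5.

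Whether the mutant effect itself differed between stages was tested as an interaction. It was larger at E11.5 than at E9.5 in 18 of 40 members and smaller in 0, where 2.81% of all genes tested had a larger and 3.61% a smaller effect, with a median difference of 0.65 against 0.01. The 6 with the smallest adjusted p were Gnl3 (0.95 ± 0.17, adjusted p = 0.00544), Nop2 (0.82 ± 0.15, 0.00554), Rrp9 (1.15 ± 0.22, 0.00690), Bop1 (0.90 ± 0.17, 0.00698), Bysl (0.72 ± 0.15, 0.0115) and Fbl (1.11 ± 0.24, 0.0133). By role these were 1 of 8 Pol I genes, 6 of 9 snoRNP genes, 3 of 9 small subunit genes, 5 of 9 large subunit genes and 3 of 5 nucleolar genes. Those of Gnl3, Nop2, Rrp9, Bop1, Bysl, Fbl and Gar1 held in all 12 fits without 1 library, and the count ranged from 7, without control E11.5 replicate 3, to 25, without control E9.5 replicate 2. Without control E9.5 replicate 1, 20 were called and the difference for Nhp2 was 0.80 in place of 1.41.

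Between E10.5 and E9.5 the difference passed for 1 member, Rrp9 (0.86 ± 0.22, adjusted p = 0.0490), and 0 had a smaller effect, where 0.925% and 1.29% of all genes tested did. It was 0.56 without control E9.5 replicate 1 and its call held in 3 of 12 fits without 1 library. The next were Nop2 (0.55 ± 0.15), Bop1 (0.61 ± 0.17), Nhp2 (1.18 ± 0.34), Polr1e (0.68 ± 0.20) and Nop56 (0.54 ± 0.16), with adjusted p from 0.0625 to 0.0831. An unadjusted p under 0.05 was seen for 19, and DESeq2 called 12. Between E11.5 and E10.5 the difference passed for 0 members, where 0.0746% of all genes were called in either direction, with 4 at an unadjusted p under 0.05, 0 by DESeq2, and a median of 0.27. The 6 smallest adjusted p values there ran from 0.499 for Gnl3 (0.42 ± 0.17) through Noc4l (0.33 ± 0.14), Ddx21 (0.45 ± 0.20), Nolc1 (0.47 ± 0.21) and Wdr43 (0.33 ± 0.16) to 0.607 for Noc3l (0.35 ± 0.17).

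Levels between genes were compared per length, as CPM per kilobase of exon. In E9.5 controls Npm1 was highest at 1360 ± 428 (SD, n = 3), followed by Ncl at 234 ± 11.8 and Nhp2 at 212 ± 125. Ncl and Nhp2 did not differ beyond their spread, but the spread and mean of Nhp2 rest on control E9.5 replicate 1. That library stood at 408 CPM for Nhp2, against 151 and 170 CPM in the other controls. For Npm1 it stood at 4930 CPM, against 2870 and 3050 CPM. Polr1e at 13.3 ± 2.58, Polr1a at 13.3 ± 3.04 and Wdr12 at 7.24 ± 0.993 were the lowest. The lengths behind these values are those of all annotated exons, which for Wdr12 reach 11955 bases.

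Genes of ribosome biogenesis outside the 40 were followed in 4 lists, beside the 7.30% of all genes that rose at E10.5 and the 8.02% that rose at E11.5. The E10.5 counts of 5 of 46 and 1 of 11 genes given here are near that background. Of 13 other Pol I transcription genes, 2 rose at E10.5 and, a day later, 3 (medians 0.27 and 0.36), among them Taf1d, a part of the Pol I promoter factor SL1, at 0.58 ± 0.15 and 0.79 ± 0.15. Of 46 other small subunit genes, 5 and 25 rose (medians 0.15 and 0.36), for example Rcl1, a processing factor of the small subunit, at 0.46 ± 0.10 and 0.77 ± 0.10. Of 45 other large subunit genes, 7 and 27 rose (medians 0.20 and 0.45), for example Ppan at 0.76 ± 0.14 and 0.97 ± 0.14 and Mak16 at 0.83 ± 0.13 and 0.91 ± 0.13. None of these lists had a member that fell at either stage, and 0 were called at E9.5, by edgeR or DESeq2. With 1 library of the stage left out, the E11.5 counts ranged from 1 to 3, from 13 to 30 and from 18 to 34, each lowest without mutant E11.5 replicate 3 (for Pol I genes also without control E11.5 replicate 3), and the E10.5 counts were 0 to 1, 2 to 3, and 3 in each fit. The E10.5 call of Taf1d was lost without control E10.5 replicate 1 or 2. Of 11 tested RNA exosome genes, which trim ribosomal RNA, 1 and 4 rose, Exosc1 at both stages (0.36 ± 0.10, held in 2 of 6 fits without 1 library, and 0.52 ± 0.10). Without 1 library of the stage the exosome counts were 0 to 1 at E10.5 and 1 to 3 at E11.5, where 1 of 11 is near the 8.02% of all genes. The unadjusted counts at E9.5 were 4, 1, 1 and 2 in these 4 lists.

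**Figure D4:**
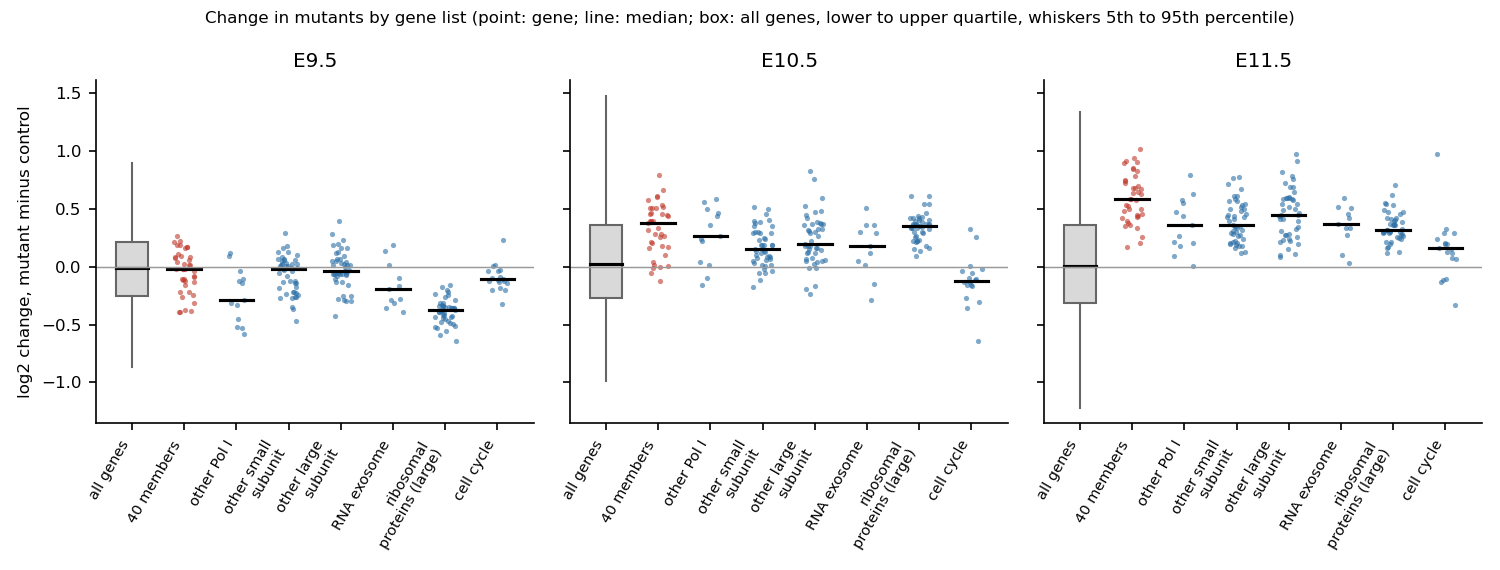
Log2 change between mutants and controls (y axis) of each gene (points) in the 40 members and 6 other lists at the 3 stages, with the median of each list as a line and all 20118 genes as a box from the lower to the upper quartile, with whiskers to the 5th and 95th percentiles. The members' median is -0.02, 0.38 and 0.59 over the stages, while that of all genes stays between -0.01 and 0.02.

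The genes for MYC proteins, activators of ribosome biogenesis that bind the sequence CACGTG, were higher in mutants at E10.5 and E11.5 in the case of Myc and Mycn. Myc stood at 34.7, 38.6 and 31.1 CPM in E10.5 controls and 70.0, 76.0 and 70.2 CPM in mutants (1.05 ± 0.15, adjusted p = 0.000235). Its E11.5 values were 35.0, 27.4 and 23.9 CPM against 90.9, 65.0 and 81.7 CPM (1.46 ± 0.16, adjusted p = 1.17e-05). Mutant libraries lay far above controls at both stages, and at E9.5 they overlapped, at 102, 81.5 and 76.2 CPM against 88.1, 99.9 and 79.9 CPM (0.05 ± 0.15, adjusted p = 0.912). Mycn, its relative in limb mesenchyme, stood at 169, 144 and 169 CPM in E10.5 controls and 264, 219 and 237 CPM in mutants (0.58 ± 0.17, adjusted p = 0.0285), a call that held in 1 of 6 fits without 1 library, and rose at E11.5 (0.71 ± 0.17, adjusted p = 0.00746). Mxd4, an antagonist that competes for the MYC partner MAX, was lower, at 75.2, 86.5 and 75.2 CPM in E10.5 controls and 43.4, 53.4 and 50.9 CPM in mutants (-0.68 ± 0.12, adjusted p = 0.00124). In E11.5 controls it stood at 117, 123 and 123 CPM against 58.7, 54.4 and 54.4 CPM in mutants (-1.12 ± 0.12, adjusted p = 1.52e-05). Of the 10 genes in this list of MYC proteins and partners, 3 rose and 1 fell at E10.5 and 3 rose and 3 fell at E11.5, with medians of -0.03 and -0.01. Over all genes, 7.30% rose and 6.63% fell at E10.5, and 8.02% rose and 9.52% fell at E11.5.

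The 250 bases before the transcription start, from RefSeq promoter windows on GRCm38.p6, were searched for CACGTG, which reads the same on both strands. It was found in 2 of the 35 members with a window, Nop2 and Rrn3 (5.71%), and in 6.86% of the 27025 genes with a window. Tcof1, Fbl, Rrp12, Bop1 and Npm1 had no window in the table. The windows of Nop2, the member with the smallest adjusted p, on the plus strand at chr6:125131633-125131882 with 1 match, and of Rrn3, on the plus strand at chr16:13780449-13780698 with 2 matches, are shown with the matches in capitals. A match is a description of the letters and not of binding.
Nop2: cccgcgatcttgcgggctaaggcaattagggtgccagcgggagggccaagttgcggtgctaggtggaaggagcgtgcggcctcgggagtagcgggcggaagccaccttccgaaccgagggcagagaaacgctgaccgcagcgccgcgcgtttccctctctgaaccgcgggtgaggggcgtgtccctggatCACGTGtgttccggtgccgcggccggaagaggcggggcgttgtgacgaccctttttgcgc
Rrn3: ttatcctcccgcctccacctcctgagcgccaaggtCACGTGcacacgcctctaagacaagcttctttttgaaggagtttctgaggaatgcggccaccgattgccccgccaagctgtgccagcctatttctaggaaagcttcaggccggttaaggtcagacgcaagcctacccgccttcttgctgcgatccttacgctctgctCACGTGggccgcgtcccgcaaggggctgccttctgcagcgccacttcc

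Markers of the cell types of the bud also differed between mutants and controls, where 7.30% of all genes rose and 6.63% fell at E10.5, and 8.02% rose and 9.52% fell at E11.5. Of 8 limb mesenchyme markers, 3 fell at E10.5 and 4 at E11.5, and their summed level was 1520 to 1680 CPM in E10.5 controls and 916 to 1140 CPM in mutants, and 1560 to 1720 CPM against 778 to 1070 CPM at E11.5. Tbx5, a forelimb transcription factor, fell by 1.42 and 1.91 on the log2 scale. Of 10 surface ectoderm markers, 9 and 8 rose, with sums of 362 to 537 CPM against 731 to 1080 CPM at E10.5 and 374 to 634 CPM against 740 to 973 CPM at E11.5. Of 9 endothelium markers, 4 and 2 rose, with sums of 368 to 406 CPM against 442 to 513 CPM and 330 to 383 CPM against 329 to 400 CPM. Of 10 erythroid markers, 8 rose at E10.5 and, a day later, 0, with sums of 2980 to 6180 CPM against 6380 to 20000 CPM and 3530 to 4960 CPM against 3950 to 9120 CPM. Of 10 macrophage markers, 5 and 9 rose, with sums of 23.0 to 29.7 CPM against 42.8 to 75.6 CPM and 46.5 to 56.4 CPM against 109 to 230 CPM. The E10.5 erythroid count was 0 without mutant E10.5 replicate 3 or control E10.5 replicate 1 and 2 without control E10.5 replicate 3, and without 1 library the ectoderm counts ranged from 5 to 9 and 2 to 8, the endothelium counts from 1 to 4 and 1 to 2, and the macrophage counts from 1 to 5 and 5 to 9. None of these markers was called at E9.5 by edgeR or DESeq2, with 3 endothelium and 1 macrophage marker at an unadjusted p under 0.05. The ectoderm sums did not overlap there, at 335 to 446 CPM in controls and 476 to 565 CPM in mutants, with 10 of 10 changes above 0 and a median of 0.36. The other E9.5 sums were 1760 to 2510 CPM against 1740 to 1780 CPM for mesenchyme, 376 to 439 CPM against 438 to 518 CPM for endothelium, 2450 to 4740 CPM against 4010 to 4460 CPM for erythroid cells and 4.29 to 5.17 CPM against 4.92 to 8.90 CPM for macrophages. The 2 hindlimb markers summed to at most 16.1 CPM in any library. No marker was at 0 in all 6 libraries of a stage, and the part of these shifts in the rise of the ribosome biogenesis genes was not tested.

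The p53 targets and cell cycle genes are given beside all genes tested, of which 0.184% were called in either direction at E9.5. At E10.5, 7.30% of all genes rose and 6.63% fell, and at E11.5, 8.02% rose and 9.52% fell. Of 15 p53 targets, 9 rose at E9.5, 14 at E10.5 and 12 at E11.5, Cdkn1a, an inhibitor of cell cycle kinases, by 2.38 ± 0.14, 3.00 ± 0.14 and 2.12 ± 0.13. The median of the p53 targets at E9.5 was 0.77, while 0 of the 40 ribosome biogenesis genes were called at that stage. Having 0 calls does not show that these genes were unchanged, and the order of the changes was not tested. Of 18 cell cycle genes, 0 were called at E9.5, Top2a fell at E10.5 (-0.64 ± 0.14, adjusted p = 0.00413), and Ccne1 (0.97 ± 0.15, adjusted p = 0.000317) and Plk1 (0.29 ± 0.10, adjusted p = 0.0446, held in 2 of 6 fits without 1 library) rose at E11.5. These cell cycle counts, 1 of 18 lower at E10.5 and 2 of 18 higher at E11.5, are near the shares over all genes. The cell cycle medians of -0.11, -0.12 and 0.16 over the 3 stages compare with -0.02, 0.38 and 0.59 for the members.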

How the data were processed

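Counts per gene were deposited by the authors for 18 libraries. Per the file headers, featureCounts 1.6.4 counted fragments on the reverse strand over exons of GENCODE vM22 on mm10; cutadapt, STAR and limma are also named in the submitters' processing notes, with settings not given in the sources used here. The authors' deposited log2 FPKM table of 14692 genes served as an alternative. Its depth is not recorded in the values.

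Groups were taken from the sample titles. All 18 libraries were fitted together in edgeR 4.0.16 (R 4.3.3) with TMM scaling, filterByExpr and 1 coefficient per group, and tested by robust quasi-likelihood F tests with Benjamini-Hochberg adjustment over 20118 genes at 0.05. Standard errors are the log2 change over the square root of F, and the common biological coefficient of variation was 0.231. CPM use the TMM-scaled library sizes. The members and lists were chosen with earlier results of these data known. Values per library are given for Ncl, Npm1, Fbl, Polr1a, Polr1b, Ubtf, Tcof1 and Dkc1 and for the 8 members with the smallest adjusted p in each comparison of mutants with controls; control stage and interaction comparisons name 6, and other lists up to 3 called genes a stage, beside Myc and Mycn. Mxd4, Taf1d and the other genes outside the 40 come from that rule.

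Alternatives were DESeq2 1.42.0, limma-voom and limma-trend (limma 3.58.1), RLE scaling, no filter, separate stages, a replicate block, removal of each library's trend with gene length (lowess, span 0.3), and fits without single libraries. The fit was tested on simulated data for the E11.5 comparison over 20118 genes: it recovered 59% of genes changed by 1 on the log2 scale and 8% of those changed by 0.5, with 4 false calls. Far fewer genes were changed in the simulation than the 1613 that rose and 1916 that fell in the data. The adjustment is stricter with fewer changed genes, so these rates do not describe the real comparison. Promoter windows came from RefSeq, and tables and plots were made with Python 3.11.15, pandas 2.3.3 and matplotlib 3.10.9.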

Additional observations from a re-analysis of the deposited data

Results flagged for a closer look

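The mutant effect differed between stages, by an interaction test in edgeR, for 18 members between E11.5 and E9.5 and for Rrp9 also between E10.5 and E9.5, by 0.86 on the log2 scale. Between E11.5 and E9.5 the snoRNP genes Nhp2, Rrp9, Fbl, Gar1, Nop56 and Dkc1 differed by 1.41, 1.15, 1.11, 1.11, 0.71 and 0.70. The nucleolar genes Npm1, Gnl3 and Ddx21 differed by 0.97, 0.95 and 0.70. The large subunit genes Noc2l, Bop1, Nop2, Wdr12 and Ddx18 differed by 0.93, 0.90, 0.82, 0.70 and 0.67. Of the small subunit and Pol I genes, Bysl, Noc4l, Wdr43 and Polr1e differed by 0.72, 0.61, 0.58 and 0.84. All of these differences were above 0, meaning a larger mutant minus control change at the later stage. Single libraries were not tested as outliers within groups of 3.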

How the results depend on the processing

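No member changed the sign of a called value under any alternative run. The count at E10.5 moved from 14 to 31 with each stage fitted alone and to 4 with only the 4 libraries whose names begin with 41, and ranged from 5, without control E10.5 replicate 2, to 24, without control E9.5 replicate 1. At E11.5 it ranged from 23 to 37 without 1 library. The interaction between E10.5 and E9.5 passed for 1 member, for 12 by DESeq2, for 0 by limma-voom, with the replicate block or with the length trend removed, for 2 without the pair of libraries that stood apart, and for 0 to 17 without 1 library. That between E11.5 and E9.5 ranged from 7 to 25 and that between E11.5 and E10.5 stayed at 0. The falls in controls from E10.5 to E11.5 numbered 19 with the length trend removed, 26 without the pair and 2 to 26 without 1 library, and those from E9.5 to E10.5 numbered 40 with the length trend removed and 31 to 37 without 1 library. In mutants the falls numbered 1 to 27 from E9.5 to E10.5 and 0 to 2 from E10.5 to E11.5. The cause of these shifts was not tested. To look for pairs, the deviation of each library from its group mean was correlated between controls and mutants of the stage. For the same replicate number the correlation was 0.0638 to 0.158 at E9.5, each highest with its own number. It was -0.00376 to 0.0753 at E10.5 and -0.134 to 0.102 at E11.5, where not all were highest with their own number. The numbers were therefore not taken as pairs. Leading numbers of library names, whose meaning the labels do not state, join controls and mutants for 4 libraries at E10.5 and 2 each at E9.5 and E11.5, and were not fitted as a block. Within a group, such a number is shared by control E11.5 replicates 2 and 3 and by 2 libraries of each E10.5 group. With the replicate block 0, 15 and 29 members were called at the 3 stages and 14 in the interaction between E11.5 and E9.5. No paired analysis was possible for stage comparisons because the block lies within a stage. In simulated E11.5 data over all genes, 8% of changes of 0.5 on the log2 scale were recovered. That is not a rate for the members or for the real comparison, as far fewer genes were changed in the simulation than were called in the data.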

Other observations

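The 44 genes of large subunit ribosomal proteins moved together but were called in few cases. Their median log2 change was 0.35 at E10.5 and 0.32 at E11.5, all 44 were above 0 at both stages, and 1 was called at each, Rpl13a (0.54 ± 0.17, adjusted p = 0.0446) and Rplp1 (0.71 ± 0.22, adjusted p = 0.0386). Leaving out control E9.5 replicate 1 gave medians of 0.34 and 0.32 and counts of 36 and 37, and the calls of Rpl13a and Rplp1 were lost without any one library of their stage. The shares of all genes called in fits without that control library are not given here, so counts from those fits have no background beside them. At E9.5, where 0.184% of all genes were called, the median was -0.38 with 0 of 44 above 0 and 0 called (12 at an unadjusted p under 0.05, 0 by DESeq2). It was 0.05 with 40 above 0 and 0 called without that library. In controls from E9.5 to E10.5, where 12.5% of all genes tested fell, 42 of the 44 fell with a median of -0.72, or 29 with a median of -0.28 without that library.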
